A study of Ovis aries with 16 samples.

Results

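Mitochondrial ribosomal protein genes were taken by symbol, as those whose symbol in the array's probe-to-gene table began with MRPL (large subunit) or MRPS (small subunit) followed by a number, on probe sets with 1 symbol. This gave 67 genes of the 9155 genes measured, 43 of the large and 24 of the small subunit, on 84 probe sets. Where a gene had several probe sets, the one with the highest mean over all 16 arrays stood for it. By symbol, 64 of the 67 were also found in a RefSeq table of sheep genes, the others being MRPS16, MRPS17 and MRPS36. Symbols and structure part ways for 3 of them: MRPS30 and MRPS18A carry the letter of the small subunit and are known to sit in the large one, and MRPS36 is known as a subunit of the oxoglutarate dehydrogenase complex. Of the 67, 38 were taken as homologues of bacterial ribosomal proteins and 29 as specific to mitochondria, MRPS18A and MRPS18B among the 29. This sorting was not checked by sequence.

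RNA of peripheral lung was measured in 16 lambs at 3 days of age, 8 control and 8 shunt, with 1 array each. In both groups the ewe had undergone surgery 9 ± 6 days before term. Control fetuses had a sham operation, and shunt fetuses received a synthetic vascular graft of 8.0 mm diameter and 2 mm length from the ascending aorta to the main pulmonary artery, which lets aortic blood flow into the lung and serves as a model of heart defects present at birth that overload the lung with blood. The labels describe no lamb singly, so each array was taken as 1 lamb, and p-values measure the spread between arrays, which may be technical. Levels are log2 values per probe set made by the authors with RMA, which removes background, equalizes the arrays and summarizes the probes. Differences are shunt minus control on this log2 scale, where 0.26 is 1.2-fold.

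These genes are encoded in the nucleus, and their proteins are imported into mitochondria, where they join mitochondrial ribosomal RNA to form a ribosome of a large and a small subunit. That ribosome makes the few respiratory chain and ATP synthase proteins that mitochondrial DNA encodes, so it is needed for oxidative phosphorylation. Some of its proteins descend from the bacterial ancestor of mitochondria, and others have no bacterial counterpart. In lung, the surfactant-making alveolar type 2 cells are known to be rich in mitochondria.

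Pairs of arrays correlated at 0.980 to 0.995, and array medians lay from 7.12 to 7.19. The array least like the rest was control replicate 2 (mean correlation 0.983, limma array weight 0.27). Brightness of the defining lung markers was uneven. Of alveolar type 2 cells, SFTPC was at percentile 99.4 of all genes and SLC34A2 at 31.1, and of endothelium PECAM1 was at 98.2, KDR at 13.2 and VWF at 4.84. At an unadjusted p under 0.05, 3 of 7 alveolar type 2, 3 of 6 type 1, 3 of 6 neutrophil and 2 of 2 airway secretory markers were lower in shunt, where 7.92% of all genes were. In the other direction, 3 of 9 endothelial, 4 of 7 smooth muscle and 2 of 6 proliferation markers were higher, where 6.63% of all genes were. The airway secretory markers differed by -0.63 ± 0.23 (TFF3) and -0.26 ± 0.11 (BPIFA1). In each of the other 7 marker lists (fibroblast, ciliated, macrophage, T cell, B cell, erythroid and muscle) at most 1 marker passed in a direction. No marker of any list passed after Benjamini-Hochberg adjustment (limma). The mean log2 level over the type 2 markers ran from 10.61 to 10.94 in control and from 10.40 to 10.82 in shunt, and that over the proliferation markers from 7.79 to 8.98 and from 8.40 to 9.30. Their part in the values below was not tested. In whole lung, fewer cells of a type and less RNA per cell cannot be told apart.

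The question was whether the genes of the mitochondrial ribosome, and either subunit of it, were at another level in shunt lung, and no member passed the test. Of 67 genes, 33 had a positive and 34 a negative difference, with a median of -0.00037 and quartiles of -0.042 and 0.045, beside a median of -0.014 over all genes tested. In limma's test over all 9155 genes, 0 of the 67 were called higher and 0 lower at an adjusted p under 0.05, where 0.0655% and 0.0218% of all genes were. Without adjustment, at a p under 0.05, MRPL52 alone was higher and 3 members were lower (MRPS9, MRPS18B and MRPL28), where 6.63% and 7.92% of all genes passed in those directions. The highest and lowest levels of the groups overlapped for every one of the 67, and 0.153% of all genes had groups that did not overlap.

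The differences were small, and for most members they were measured closely. The size of the difference was under 0.1 for 50 of the 67 genes and over 0.2 for 2, MRPL15 and MRPS9. Standard errors ran from 0.044 (MRPS18B) to 0.12 (MRPL50). For 53 genes, 34 of the large and 19 of the small subunit, the 95% interval of the difference lay within 1.2-fold in either direction, a limit chosen after the values were seen. The same held for 62.1% of all genes. The widest reach of any interval was down to -0.39 for MRPS9 and up to 0.41 for MRPL15, so differences of up to that size lie within their intervals.

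**Figure D1:**
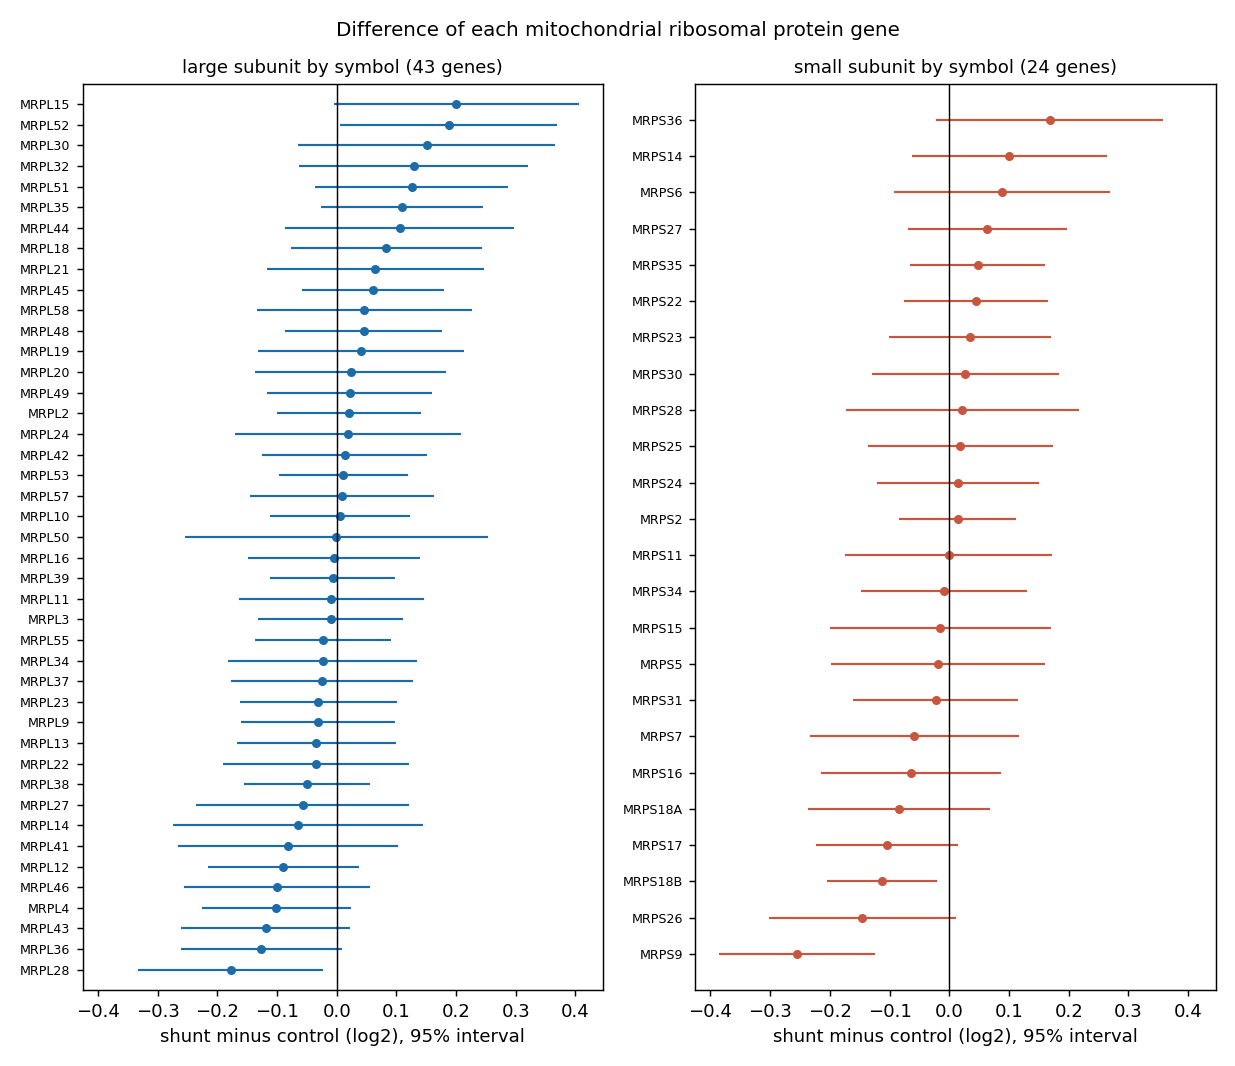
Difference of each of the 67 genes (x axis, shunt minus control on the log2 scale, n = 8 lambs a group), as a point with its 95% interval from limma, by subunit (panels) and in order of the difference (y axis). Points lie on both sides of 0 in both panels, from -0.25 for MRPS9 to 0.20 for MRPL15.

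Both subunits were centred close to 0. The 43 large subunit genes had a median difference of -0.00037, 21 positive and 22 negative, and the 24 small subunit genes had one of 0.0064, 12 positive and 12 negative. Of the 4 genes that passed without adjustment, MRPL52 (higher) and MRPL28 (lower) were of the large subunit, and MRPS9 and MRPS18B (lower) of the small. Large minus small, the medians differed by -0.0068. A related measure is the median deviation from the control mean in each lamb, large minus small. Its mean was 0.0082 in control and 0.019 in shunt, so it was higher in shunt, with a pooled SD between single lambs of 0.032. The sign of the -0.0068 is no result: the value turned under other processing, from -0.022 after quantile normalization again to 0.018 with the most variable probe set of each gene. With MRPS30 and MRPS18A counted in the large subunit, MRPS36 left out and the other named subunits added, it was -0.0011. Sorted by origin, the 38 genes taken as bacterial homologues had a median of -0.0094 (16 positive). The 29 taken as mitochondrion-specific, with MRPS18A and MRPS18B, had one of 0.013 (17 positive).

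MRPS9, the homologue of bacterial ribosomal protein S9 in the small subunit, had the smallest p of the family. Its log2 level ran from 7.25 to 7.69 in control lambs (median 7.46) and from 7.08 to 7.35 in shunt lambs (median 7.20). All 8 shunt lambs lay below the control mean and 6 of 8 below the lowest control, and the groups overlapped. The difference was -0.25 ± 0.06 (SE), or 0.838-fold, with an adjusted p = 0.113 (limma), which misses the threshold. Over the alternatives the adjusted p ran from 0.0749, with array weights, to 0.423, with another probe set. The other probe sets of MRPS9 did not all show it: a dim one differed by -0.18 ± 0.10 and one of like brightness by 0.0044 ± 0.07.

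MRPS18B, a small subunit protein of the MRPS18 family of paralogues, showed a smaller difference with a tight spread. Its log2 level ran from 8.23 to 8.45 in control (median 8.40) and from 8.19 to 8.36 in shunt (median 8.25). All 8 shunt lambs were below the control mean, while control replicates 1 and 6, at 8.27 and 8.23, lay among them. The difference was -0.11 ± 0.04 (adjusted p = 0.264, limma). Its paralogue MRPS18A, which is placed in the large subunit, had control lambs at 7.29 ± 0.17 (SD, n = 8) and shunt lambs at 7.21 ± 0.12, so that it differed by -0.08 ± 0.07 (SE). Their relative MRPS18C was not analysed here.

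**Figure D2:**
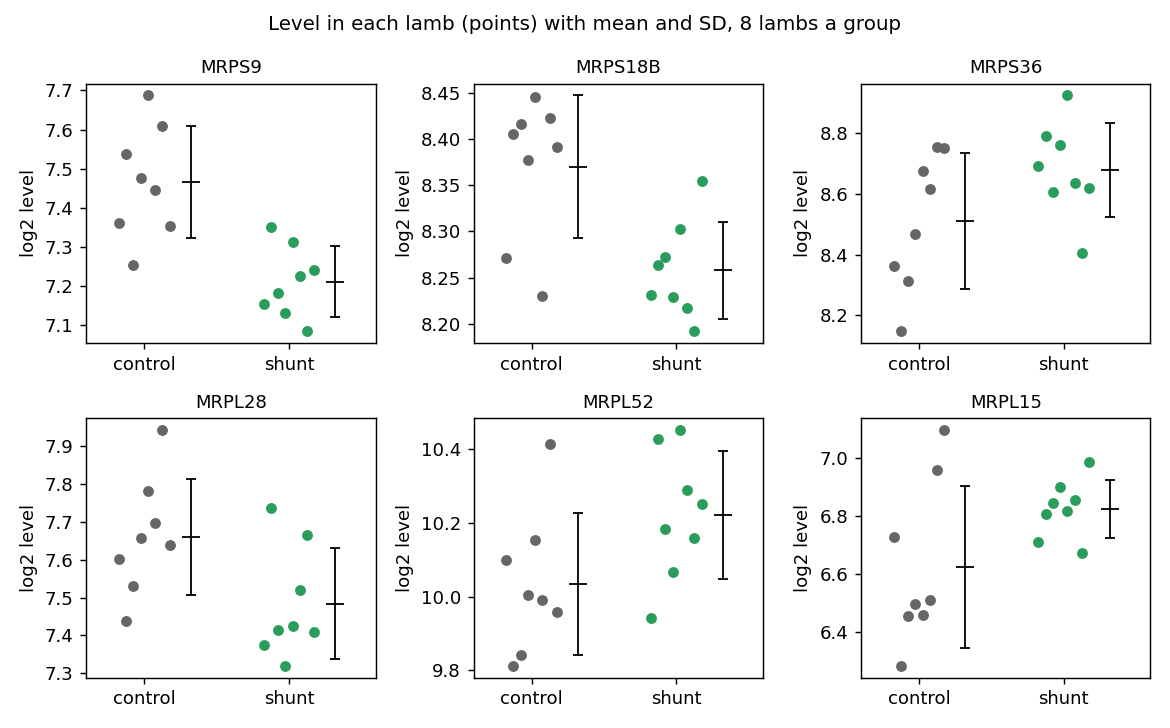
Log2 level (y axis) in each of the 8 control and 8 shunt lambs (points) for 6 genes, with the group mean and SD as a bar beside them. For MRPS9 and MRPS18B all 8 shunt points lie under the control mean bar, and the groups overlap in every panel.

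In the large subunit, MRPL28 had the lowest and MRPL15 the highest difference. MRPL28, a homologue of bacterial L28, ran from 7.44 to 7.94 in control (median 7.65) and from 7.32 to 7.74 in shunt (median 7.42), with 5 of 8 shunt lambs below the lowest control. Its difference was -0.18 ± 0.07 (adjusted p = 0.287, limma). MRPL52 was counted among the mitochondrion-specific proteins. It ran from 9.81 to 10.41 in control (median 9.998) and from 9.94 to 10.45 in shunt (median 10.22). In 7 of 8 shunt lambs it was above the control mean, and the groups overlapped over most of their range. The difference was 0.19 ± 0.09 (adjusted p = 0.334, limma). Control replicate 7 held the highest control value of both genes, and without it the MRPL28 difference was -0.14 (adjusted p = 0.376, limma) and that of MRPL52 was 0.24 (adjusted p = 0.255, limma).

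MRPL15, a homologue of bacterial L15, had a higher mean in shunt lambs, and its levels were spread more widely among control lambs. It was not called higher, and its difference in spread was not tested. A larger SD in control was common, in 49 of 67 members and 67.3% of all genes. Control lambs ran from 6.28 to 7.09 (median 6.50) and shunt lambs from 6.67 to 6.99 (median 6.83). All 8 shunt lambs lay above the control mean, but 3 control lambs (replicates 1, 7 and 8) lay among or above them. The difference was 0.20 ± 0.10 (adjusted p = 0.354, limma), with an SD of 0.28 in control and 0.10 in shunt. For MRPL18 (0.08 ± 0.08) and MRPL32 (0.13 ± 0.09) too, all 8 shunt lambs lay above the control mean. Of these, MRPL18 had only 3 of 8 above the control median. What share of all genes had all 8 on one side was not counted. This holds for the counts of MRPS9 and MRPS18B as well.

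The other members with the smallest p stayed further from the threshold. On the positive side of the large subunit, MRPL30 differed by 0.15 ± 0.10, MRPL51 by 0.13 ± 0.08 and MRPL35 by 0.11 ± 0.06. On the negative side were MRPL36 (-0.13 ± 0.06), MRPL43 (-0.12 ± 0.07), MRPL4 (-0.10 ± 0.06) and MRPL12, the protein of the flexible stalk that binds translation factors (-0.09 ± 0.06). Their adjusted p ran from 0.371 to 0.498 (limma). By symbol in the small subunit, MRPS36 ran from 8.15 to 8.76 in control (median 8.54) and from 8.40 to 8.92 in shunt (median 8.66), a difference of 0.17 ± 0.09. With 7 of 8 shunt lambs above the control mean, 3 were also above the highest control. MRPS14 differed by 0.10 ± 0.08, MRPS6 by 0.09 ± 0.09, MRPS27, a pentatricopeptide repeat protein, by 0.06 ± 0.06 and MRPS35 by 0.05 ± 0.05. MRPS26 differed by -0.15 ± 0.07 and MRPS17 by -0.10 ± 0.06. For these 7 the adjusted p ran from 0.373 to 0.704 (limma).

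The brightest members of both subunits had differences near 0, and the 2 dimmest had negative differences among the larger ones of the family. The brightness of a probe set does not compare the amounts of different RNAs, but it bounds how well a difference can be read. The brightest members were MRPL9 (mean 10.89) and MRPL49 (10.60) in the large and MRPS24 (10.58) and MRPS30 (9.92) in the small subunit. Their differences were -0.031 ± 0.06, 0.022 ± 0.07, 0.015 ± 0.06 and 0.027 ± 0.07, and the signs turned under other processing or without 1 array for all 4. The dimmest of the large subunit were MRPL46 (mean 5.54, percentile 7.90 of the genes) and MRPL36 (6.04, percentile 13.0), at -0.10 ± 0.07 and -0.13 ± 0.06. The next dimmest member, MRPL15 (6.72, percentile 22.4), had the highest difference of the family, 0.20 ± 0.10. The dimmest of the small subunit were MRPS25 and MRPS5 at 0.019 ± 0.07 and -0.019 ± 0.09, whose signs turned as well. Signal over background is unknown, so a small difference of a dim probe set does not show that the RNA was equal. With all genes cut into 10 equal groups by brightness, the median difference went from -0.036 in the dimmest group and -0.050 in the next to 0.023 in the brightest. The members lay mostly between: 14 of the 67 were in group 5 and 12 in group 8, where their medians were 0.0012 and -0.0055 beside -0.022 and 0.011 for all genes.

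**Figure D3:**
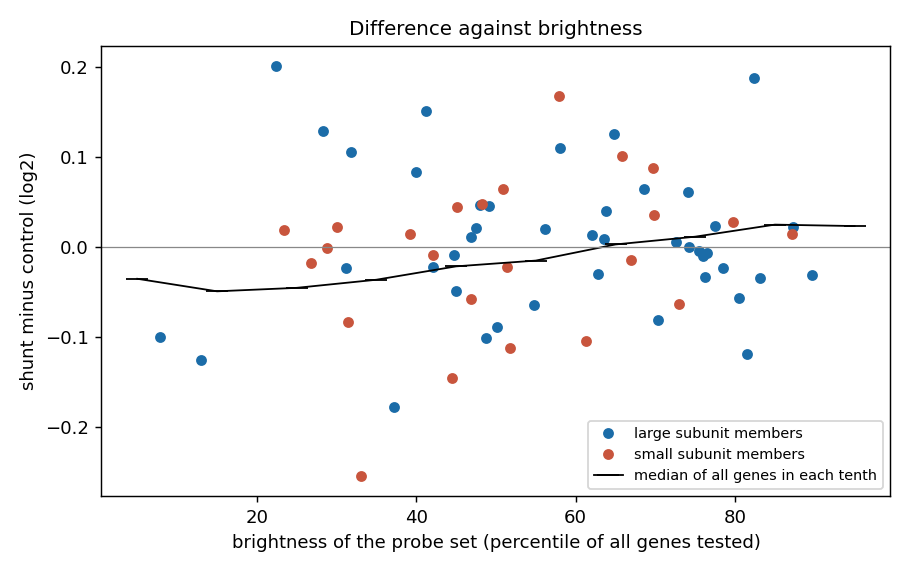
Difference of each member (y axis, shunt minus control, log2) against the brightness of its probe set as a percentile of all 9155 genes (x axis), coloured by subunit, with the median of all genes in each of 10 groups of brightness as a line. The line ends at 0.023 on the bright side, and members lie on both sides of it.

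Probe sets of one gene did not always give one sign. Of 14 members with more than 1 probe set, 8 had the same sign on all and 6 did not (MRPL39, MRPL43, MRPL57, MRPS2, MRPS35 and MRPS9). Over all 84 probe sets, 7 (8.33%), 1 higher and 6 lower, passed an unadjusted p of 0.05, where 13.7% of all 24016 probe sets did. After adjustment over all of them 0 of the 84 passed, where 0.0708% of all probe sets did (limma). Among those that did not stand for their gene, a probe set of MRPL14 differed by -0.17 ± 0.05 (adjusted p = 0.221, limma) where the brighter one differed by -0.06 ± 0.10. A probe set of MRPL23 differed by -0.15 ± 0.06, and its other 2 by -0.030 and -0.11. For MRPS34 the pair read -0.0094 ± 0.07 and -0.13 ± 0.06. The probe sets carry bovine identifiers, and the part of sequence differences between cattle and sheep was not tested.

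**Figure D4:**
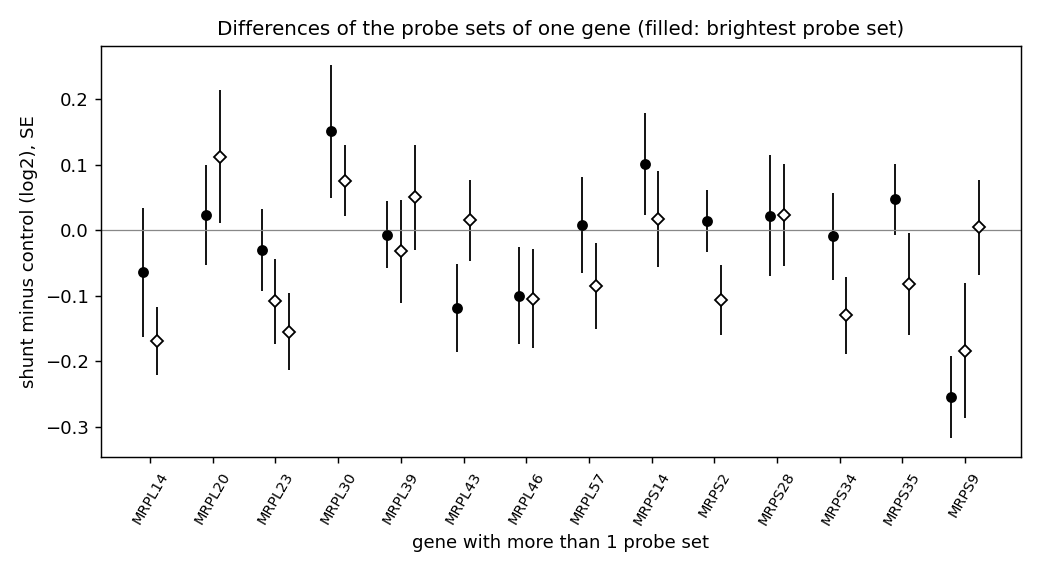
Difference (y axis, shunt minus control, log2) with its SE for each probe set of the 14 members with more than 1, the brightest filled and the others open. The probe sets lie on opposite sides of 0 for 6 of the 14 genes, MRPS9 among them.

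Levels of many members were high or low in the same lambs, and the spread was wider among control than among shunt lambs. For each lamb, the median over the members of its deviation from the control mean was taken. In control lambs it ran from -0.18 (replicate 2) to 0.16 (replicate 7), with a mean of -0.0026 ± 0.10 (SD, n = 8), and in shunt lambs from -0.043 (replicate 7) to 0.077 (replicate 2), with 0.0070 ± 0.04. So the shunt lambs lay inside the range of the controls. The median deviation of all genes had its extremes in the same arrays, with a smaller reach. It was -0.056 in control replicate 2, 0.022 in control replicate 7, -0.041 in shunt replicate 7 and -0.00012 in shunt replicate 2. The part of such an array-wide shift in the values of the members was not tested. In control replicate 7, 59 of the 67 genes lay above the control mean, and in control replicates 2 and 1 only 9 and 14 did. Both subunits showed this, at -0.17 (large) and -0.23 (small) in control replicate 2 and at 0.16 and 0.17 in control replicate 7. The SD between lambs was larger in control for 49 of 67 members, and for 46 without control replicate 2, while it was larger for 67.3% of all genes and 56.7% without that array. No test was made of this difference in spread.

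Subunits of the respiratory chain and ATP synthase followed the same lambs, and cytosolic ribosomal proteins did not. The median deviation of 80 oxidative phosphorylation subunits was -0.15 in control replicate 2, -0.10 in control replicate 1 and 0.19 in control replicate 7. Over 64 cytosolic ribosomal proteins it was 0.00022, -0.028 and -0.062 in those lambs. With the group means taken away, the median correlation between 2 members over the 16 arrays was 0.29 (2211 pairs), against 0.012 for all pairs of genes, and it was 0.24 within the large, 0.39 within the small and 0.31 between the subunits. It was 0.36 between members and oxidative phosphorylation subunits and -0.016 between members and cytosolic ribosomal proteins. Within those 2 lists it was higher than within the members, 0.47 for oxidative phosphorylation subunits and 0.40 for cytosolic ribosomal proteins. These values share the same arrays and normalization and are a description. Without control replicate 2 the median between members was 0.23.

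**Figure D5:**
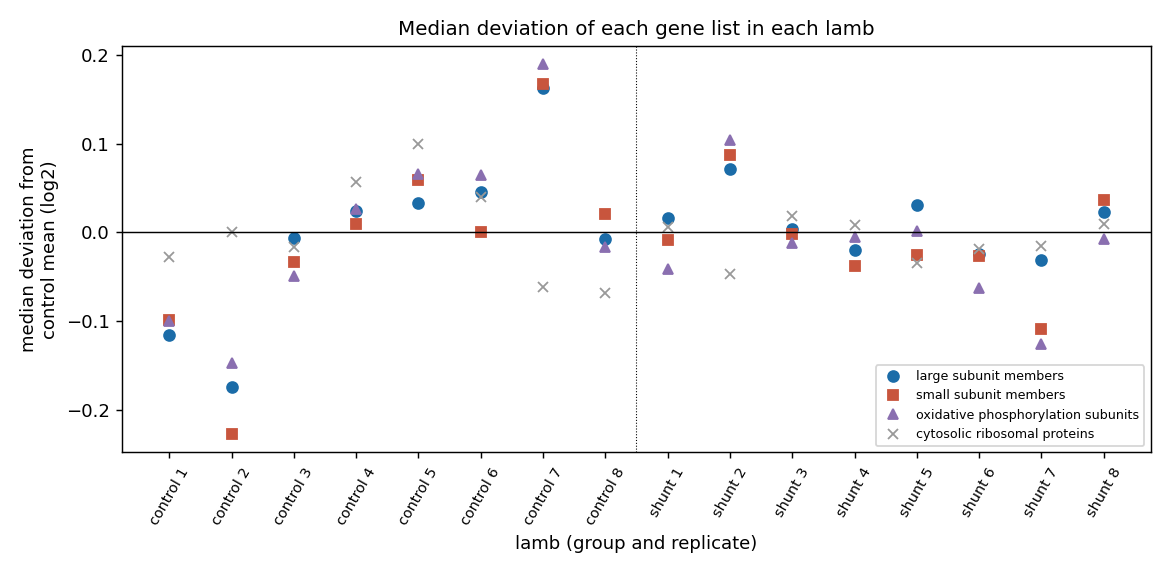
Median deviation from the control mean (y axis, log2) of 4 gene lists in each of the 16 lambs (x axis). Large and small subunit members lie near each other in most lambs, with control replicate 2 lowest and control replicate 7 highest, and shunt lambs lie inside the control range.

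Some members went their own way. The genes that moved most with the others were MRPL20, MRPS11 and MRPL24, with mean correlations of 0.48, 0.46 and 0.46 with the other members, and the closest pair was MRPL20 with MRPS11 (0.92). MRPL9 had the lowest, -0.28, followed by MRPS18A (-0.18) and MRPL14 (-0.14). In control replicate 2, where most members were low, MRPL9 read 11.15, MRPS18A 7.69 and MRPL14 8.95, each the highest of the 8 controls. The least alike pair was MRPL9 with MRPL15 (-0.81). MRPL14 also had the largest SD among controls, 0.29 against 0.09 in shunt, and MRPL50 varied most in shunt, with an SD of 0.27.

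Lists of other genes of mitochondrial translation had medians from -0.039 to -0.055, beside -0.014 over all genes. Negative differences were 14 of 20 for assembly, 9 of 12 for translation factors, 11 of 17 for the synthetase list and 4 of 6 for ribosome genes with other names. Over all genes they were 5046 of 9155. Median brightness was at percentile 32.3 for assembly and 32.5 for translation factors, in brightness group 4, where all genes had a median of -0.037. It was at 47.5 for the synthetase list and 53.1 for ribosome genes with other names. In their groups, 5 and 6, all genes had medians of -0.022 and -0.015. The part of brightness in these values was not tested. At an unadjusted p under 0.05, 6.63% of all genes were higher and 7.92% lower. By the same unadjusted threshold, 0 of 20 genes of ribosome assembly and ribosomal RNA modification passed upward and 1 downward, with a median of -0.039. The 1 was DDX28, an RNA helicase of large subunit assembly (-0.17 ± 0.07), on a probe set at percentile 1.86 of brightness. Among 12 translation factors 1 was higher, the elongation factor GFM1 (0.25 ± 0.10, adjusted p = 0.283, limma), and 0 lower (median -0.049). The list of mitochondrial tRNA synthetases also held GATB and GATC. Among its 17 genes 1 was higher, LARS2, which charges leucine tRNA (0.16 ± 0.06, percentile 1.79 of brightness), and 0 lower (median -0.055). The list of ribosome genes with other names held AURKAIP1, CHCHD1, DAP3, GADD45GIP1, PTCD3 and OXA1L, the last not counted in either subunit by structure. Of these 6, 0 passed in either direction (median -0.041), the smallest p being that of PTCD3 (-0.06 ± 0.05).

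Lists of genes around them had 0 to 2 members past the unadjusted threshold in a direction, where 6.63% of all genes were higher and 7.92% lower. Among 17 genes of mitochondrial DNA and RNA upkeep 0 were higher and 1 lower, POLG2, the accessory subunit of the DNA polymerase (-0.16 ± 0.06, median of the list -0.024). Among 6 regulators of mitochondrial biogenesis 1 was higher, MYC (0.46 ± 0.16, adjusted p = 0.245, limma), a transcription factor that also drives the cytosolic ribosome and the cell cycle, and 0 lower. The median of this list, 0.041, was the highest of these lists, with an upper quartile of 0.16 and PPRC1, a coactivator related to PGC-1, at 0.19 ± 0.15. Of 13 mitochondrial chaperones and proteases 1 was higher, GRPEL2 (0.21 ± 0.07), and 0 lower (median -0.0050). Of 80 oxidative phosphorylation subunits 2 were higher and 2 lower (median -0.021), with the smallest p for SDHD of complex II (0.16 ± 0.06), and of 64 cytosolic ribosomal proteins 0 were higher and 0 lower (median -0.0066), RPL28 having the smallest p (-0.09 ± 0.05). None of these genes passed after adjustment over all genes (limma). Genes encoded in mitochondrial DNA, whose RNAs the ribosome translates, were not analysed here.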

How the data were processed

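Each of 16 lambs gave 1 array of lung RNA. The values the authors deposited are log2 levels of probe sets. RMA is the tool named in the submitters' processing notes, without a version. Of 24128 probe sets, 112 controls were left out, and 13292 of the remaining 24016 had 1 symbol (86 several, 10638 none). They gave 9155 genes, each read on its brightest probe set. Groups came from sample titles. Groups were compared with limma 3.58.1 (lmFit, eBayes, no covariate, two-sided) in R 4.3.3, with Benjamini-Hochberg adjustment over all genes at 0.05. The fit was tested on simulated data, where recovery was required only for differences larger than that of any member. So it does not show whether differences of the members' size could be called. Plots used matplotlib 3.10.9 in Python 3.11.15.

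Members and gene lists were chosen with earlier results of these data known. Named members were, per subunit, the 5 of smallest p in each direction, the 2 brightest and 2 dimmest, and the MRPS18 paralogues, and from each other list the gene of smallest p. MRPL14, MRPL18, MRPL20, MRPL23, MRPL24, MRPL32, MRPL39, MRPL50, MRPL57, MRPS2, MRPS11 and MRPS34, PPRC1 and the cell type markers were named after their values were seen.

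Alternatives were further quantile normalization, centring on medians, cyclic loess, array weights, a trended and robust prior, no dim probe sets (under percentile 25), other probe set rules, all probe sets tested, a threshold of 0.10, subunit by structure, the replicate number as a block, and each array left out. Same-numbered arrays of the groups correlated from -0.27 to 0.19 in their deviations, over 0.1 in 2 of 8 pairs, so the numbers were not taken as pairs. The number of arrays limits the precision, and no batch was given. Coordinates and sequences were not used here.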

Additional observations from a re-analysis of the deposited data

Results flagged for a closer look

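In each group of 8 lambs, the gap between the most extreme lamb and the next was divided by the full range (Dixon's ratio). It passed the 95% critical value in 2 of 62 sets of values (27 named members and 4 medians over members, in both groups), where chance gives about 3.1. Control replicate 2 had the highest MRPS18A, 7.69, with the next control at 7.33 and the lowest at 7.16 (ratio 0.683). Control replicate 6 had the highest MRPS17, 9.01, with the next control at 8.85 and the lowest at 8.71 (ratio 0.535).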

How the results depend on the processing

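Under each alternative, 0 members were called in either direction by limma at an adjusted p under 0.05. At 0.10, 0 were called on the values as deposited, but MRPS9 was under it with array weights (adjusted p = 0.0749), with control replicate 8 left out (adjusted p = 0.0920) and with shunt replicate 1 left out (adjusted p = 0.0971). The medians of both subunits and their difference moved by less than the pooled SD of the lamb-by-lamb medians under each alternative run. That SD is between single lambs: 0.077 (large), 0.091 (small) and 0.032 (large minus small). It is wider than the spread of a difference between groups of 8 lambs, and leaving out 1 array could hardly pass it. Staying within it therefore shows little. The counts at an unadjusted p under 0.05 (1 higher, 3 lower) were less firm: 5 lower after quantile normalization again, 2 higher and 1 lower with arrays centred on their medians, and 2 higher and 6 lower with array weights. Over all genes the counts moved too, from 607 higher and 725 lower to 564 and 763 after quantile normalization again, 849 and 448 centred, and 626 and 897 with array weights. With the replicate block 0 were higher and 3 lower, and calls over all genes went from 6 higher and 2 lower to 0. Without shunt replicate 1, 30 genes of all were called higher and 34 lower, with 0 members among them. With 1 array left out, 0 to 4 were higher, 4 of them without control replicate 7, 3 without shunt replicate 7, 2 without control replicate 8, and 0 without control replicates 2, 3, 4 or 6 or shunt replicates 2, 3, 5, 6 or 8. From 2 to 7 were lower, 7 without shunt replicate 2, 6 without control replicate 1, 5 without control replicate 2, and 2 without control replicate 7 or shunt replicates 1 or 4. Of 701 values of named members, 674 kept their sign, and 27, of 7 genes near 0, did not. Part of the 674 could not turn. The prior, the test over all probe sets, the replicate block and the dim filter leave a gene's difference unchanged. So do the other probe set rules for a gene with a single probe set. With 1 array left out, MRPL9 ran from -0.064 to 0.0039, MRPL49 from -0.0097 to 0.056, MRPS24 from -0.0081 to 0.055, MRPS30 from -0.014 to 0.053, MRPS25 from -0.026 to 0.057 and MRPS5 from -0.062 to 0.021. After quantile normalization again and after cyclic loess, MRPL49 was -0.025 and -0.011, MRPS24 -0.026 and -0.018, MRPS30 -0.0090 and -0.0014, and MRPS5 0.0082 and 0.015, and centred on medians MRPS5 was 0.0045. MRPS35 was -0.017 with the mean of its probe sets and -0.082 with the most variable one. The cause of these turns was not tested. No scaling moved the median of all genes past 0.1; it ran from -0.018 to 0.0095.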
